A study of Homo sapiens with 8 samples.

Results

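The genes examined were those of the cytosolic ribosomal proteins, in A172 cells carrying a doxycycline-inducible shRNA, with or without doxycycline. The shRNA was directed against the histone deacetylase HDAC2 or was a control. Members were chosen by gene symbol only, as transcript clusters (the array's unit for 1 transcript locus) whose single annotated symbol begins with RPL or RPS followed by a number. Pseudogene symbols, RPS6 kinases and antisense symbols were left out. The rule gave 60 clusters of 53 genes, among 53617 clusters on the array and 16098 clusters (14884 genes) with exactly 1 symbol. Of the 79 listed canonical genes, 45 were among the members (17 of the small and 28 of the large subunit), and 8 further members were paralogues, genes related to a canonical gene by duplication. The other 34 canonical genes were not analysed here. Of the members, 58 clusters had a mean log2 signal at or above the median of all clusters (3.66), and 37 lay in the top 25% of named clusters. RPL10L and RPL31 lay below that median.

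Each ribosome is built from a single copy of nearly every ribosomal protein and from ribosomal RNA, in a small subunit that reads the mRNA and a large subunit that joins amino acids. The transcripts of these proteins are abundant. Because the proteins are needed in equal numbers, their transcripts usually move together. Many of these transcripts start with a run of pyrimidines, the 5′ terminal oligopyrimidine (TOP) element, through which the growth kinase mTOR controls how strongly they are translated. Free ribosomal proteins such as RPL11 can bind MDM2 and so stabilize p53, which links ribosome assembly to growth arrest.

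A172 is an established human glioblastoma line. Its cells were infected with a lentiviral Tet-on vector for an shRNA against HDAC2 (shHDAC2) or for a control shRNA (shControl), and doxycycline (DOX), which switches the shRNA on, was given for 2 days before harvest. The 4 groups, with 2 biological replicates and 1 array each, were shHDAC2 DOX(+), shHDAC2 DOX(-), shControl DOX(+) and shControl DOX(-), so all 8 arrays come from infected cells. Group names were taken from the titles, with which the treatment entry matched. For 4 samples, those of shHDAC2 DOX(-) and of shControl DOX(+), the source entry carries the opposite construct. The labels do not settle which entry is right for these samples, and every value given for shHDAC2 DOX(-) or shControl DOX(+) cells rests on the titles. The vector is virus-borne, and whether the lines are clones is not given in the sources used here.

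HDAC2 itself, on the brighter of its clusters, read 4.95 and 5.34 in shHDAC2 DOX(+) cells and 5.69 and 5.80 in shHDAC2 DOX(-) cells, in log2 units. It read 6.14 and 6.15 in shControl DOX(+) cells and 6.42 and 6.30 in shControl DOX(-) cells. With doxycycline, HDAC2 was lower in the shHDAC2 line by a log2 difference of -0.60 (adjusted p = 0.0115). The same difference was -0.21 in shControl cells (adjusted p = 0.956), and the difference between both responses was not called (-0.38, adjusted p = 0.243). Without doxycycline HDAC2 was already lower in the shHDAC2 line than in shControl cells (-0.61, adjusted p = 0.0101). With both lines on doxycycline it was lower in the shHDAC2 line by a log2 difference of -0.999 (adjusted p = 0.00858). Over all 53617 clusters, the 2 shHDAC2 DOX(-) arrays correlated with the other 6 at 0.950 to 0.954, against 0.982 to 0.991 among those 6 and 0.986 between both shHDAC2 DOX(-) arrays. Every comparison that uses shHDAC2 DOX(-) therefore rests on arrays that stand apart from the rest, and in the comparisons of shHDAC2 DOX(+) with shControl cells they enter only the estimate of the spread. VIM, CD44, EGFR and NES, which glioma cells express, had mean signals from percentile 91.2 up, while GFAP lay at percentile 66.7, OLIG2 at 59.1, SOX2 at 55.8 and S100B at 35.9. Of the leukocyte markers, CD68 lay at percentile 97.4 and CD14 at 42.2, and the part of other cells in any result was not tested.

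Annotated transcription starts of the members carried a pyrimidine run at a higher share than promoters in general. The search asked for a C at the annotated start of the gene's own strand, followed directly by at least 4 further C or T bases, in the RefSeq promoter table of the GRCh38.p14 build. Such a run stood at the start of 29 of 48 member genes with an entry (60.4%), and at 1104 of 27305 promoters in all (4.04%). It stood at 28 of 42 canonical genes (66.7%) and at 1 of 6 paralogues, RPL22L1. Among translation factors 5 of 19 had it, among ribosome biogenesis genes 5 of 64 and among mitochondrial ribosomal proteins 5 of 65. A match is a description of these letters, and a start that lacks it here may be annotated at another base. Windows of 30 bases, with the annotated start as their 11th base and the pyrimidine run in capitals where there is one, are shown for the genes on which the comparisons turn. RPS3 (chr11:75399508-75399537, + strand) and RPL12 (chr9:127451387-127451416, - strand) were higher in shHDAC2 DOX(+) than in shHDAC2 DOX(-) cells. RPS21 (chr20:62387093-62387122, + strand), RPS23 (chr5:82278335-82278364, - strand), RPL22L1 (chr3:170870176-170870205, - strand), RPS27L (chr15:63157458-63157487, - strand), RPL11 (chr1:23691769-23691798, + strand) and RPL17 (chr18:49492446-49492475, - strand) were lower.
RPS3: cgagccacttCCTTTCCTTTCagcggagcg
RPL12: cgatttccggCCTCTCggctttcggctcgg
RPS21: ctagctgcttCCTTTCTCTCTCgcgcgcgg
RPS23: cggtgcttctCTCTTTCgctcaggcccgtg
RPL22L1: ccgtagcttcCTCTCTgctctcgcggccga
RPS27L: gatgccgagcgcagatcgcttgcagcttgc
RPL11: cctggcccataaggccctcggccggaagct
RPL17: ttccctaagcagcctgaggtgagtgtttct
Both genes shown as higher had the run, and of the 6 shown as lower, 3 had it and 3 did not. The genes shown are a selection. Of the called members not shown, RPL26L1 (higher) lacked the run, RPL31, RPL29 and RPL34 (lower) had it, and RPL39L (higher) had no entry. Among canonical genes with an entry, 8 of the 12 that were higher in shHDAC2 DOX(-) cells, set against shControl DOX(-), had the run (66.7%), and 19 of the 29 not called in that comparison had it (65.5%).

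The members as a set sat highest on the shHDAC2 DOX(-) arrays. Taking each cluster's mean over the 4 shControl arrays as 0, the median over the 60 clusters was 0.10 and 0.11 on the shHDAC2 DOX(+) arrays and 0.32 and 0.23 on the shHDAC2 DOX(-) arrays, in log2 units. It was -0.01 and -0.10 on the shControl DOX(+) arrays and 0.11 and -0.01 on the shControl DOX(-) arrays. Both shHDAC2 DOX(-) arrays were above all others, while the shHDAC2 DOX(+) arrays overlapped with 1 shControl DOX(-) array. The deposited values were normalized to one distribution per array, so these shifts are relative to the other transcripts, and less RNA per cell cannot be told apart from fewer cells with a transcript.

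**Figure D1:**
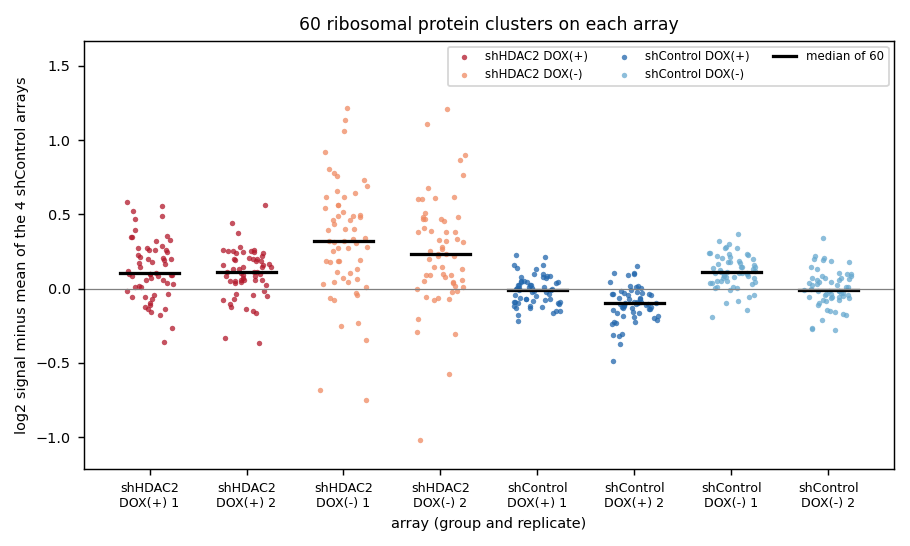
Log2 signal of the 60 ribosomal protein clusters on each of the 8 arrays, minus the cluster's mean over the 4 shControl arrays. Each point is 1 cluster and each black line the median of 60, which is highest on the shHDAC2 DOX(-) arrays (0.32 and 0.23) and lies at 0.10 and 0.11 on the shHDAC2 DOX(+) arrays.

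Comparing shHDAC2 DOX(+) with shHDAC2 DOX(-) cells asks what doxycycline does within one line, as drug and induced HDAC2 shRNA together. Of the 60 ribosomal protein clusters, 9 were lower and 4 higher at an adjusted p under 0.05 (21.7%), against 30.6% called among all 16098 clusters (15.0% higher and 15.6% lower). Among clusters in the top 25% of signal, 24.3% of the members were called, against 52.5% of all clusters. The median log2 difference was -0.14 for the members and -0.01 for all clusters. Arrays of the groups did not overlap for 33 lower and 8 higher members (31.5% and 29.4% of all clusters). Most ribosomal protein genes were therefore not called in this contrast, and the called ones were a minority that moved in both directions.

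The lower group held paralogues and canonical genes of both subunits. RPL22L1, a paralogue of RPL22 in the large subunit, read 5.23 and 5.25 in shHDAC2 DOX(+) cells, against 6.61 and 6.59 in shHDAC2 DOX(-) cells. It was 2.57-fold lower (log2 difference -1.36, SE 0.113, adjusted p = 2.73e-05). RPS27L, a p53-induced paralogue of RPS27, read 4.47 and 4.46 in shHDAC2 DOX(+) cells, against 5.39 and 5.59 in shHDAC2 DOX(-) cells (2.04-fold lower, adjusted p = 0.000342). These were the largest falls among the 60 clusters, and in both the replicates lay far closer to each other than to the other group.

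Among canonical large-subunit genes, RPL17, which lines the tunnel through which the new protein leaves, read 7.29 and 7.25 in shHDAC2 DOX(+) cells, against 8.04 and 8.02 in shHDAC2 DOX(-) cells (log2 difference -0.76, adjusted p = 0.00115). RPL11, the MDM2-binding protein, read 8.83 and 8.85 in shHDAC2 DOX(+) cells, against 9.50 and 9.60 in shHDAC2 DOX(-) cells (-0.71, adjusted p = 0.000825). RPL31 read 3.53 and 3.82 in shHDAC2 DOX(+) cells, against 4.32 and 4.37 in shHDAC2 DOX(-) cells (-0.67, adjusted p = 0.0109). RPL31, whose protein sits near the tunnel exit, had a mean signal below the median of all clusters. RPL29 and RPL34, also of the large subunit, fell by 0.62 and 0.38 on the log2 scale (adjusted p = 0.0149 and 0.0224).

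In the small subunit, RPS23, which lies at the decoding centre, read 6.90 and 6.97 in shHDAC2 DOX(+) cells, against 7.73 and 7.51 in shHDAC2 DOX(-) cells (-0.68, adjusted p = 0.00344). RPS21 read 8.85 and 8.92 in shHDAC2 DOX(+) cells, against 9.58 and 9.37 in shHDAC2 DOX(-) cells (-0.59, adjusted p = 0.00375). In each of these genes the 2 groups of arrays did not overlap.

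The 4 higher members were RPS3, RPL39L, RPL12 and RPL26L1. RPS3, which forms part of the mRNA entry channel and also acts in DNA repair, read 7.24 and 7.05 in shHDAC2 DOX(+) cells, against 6.31 and 6.42 in shHDAC2 DOX(-) cells (log2 difference 0.78, adjusted p = 0.00102). RPL39L, a paralogue of RPL39 known from mouse testis, read 7.44 and 7.38 in shHDAC2 DOX(+) cells, against 6.80 and 6.53 in shHDAC2 DOX(-) cells (0.75, adjusted p = 0.0018). RPL12, at the base of the stalk that recruits elongation factors, read 11.05 and 11.15 in shHDAC2 DOX(+) cells, against 10.65 and 10.61 in shHDAC2 DOX(-) cells (0.47, adjusted p = 0.00826). RPL26L1, a paralogue of RPL26, rose by 0.45 (adjusted p = 0.0165). Higher members thus came from both subunits and from both canonical and paralogous genes.

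**Figure D2:**
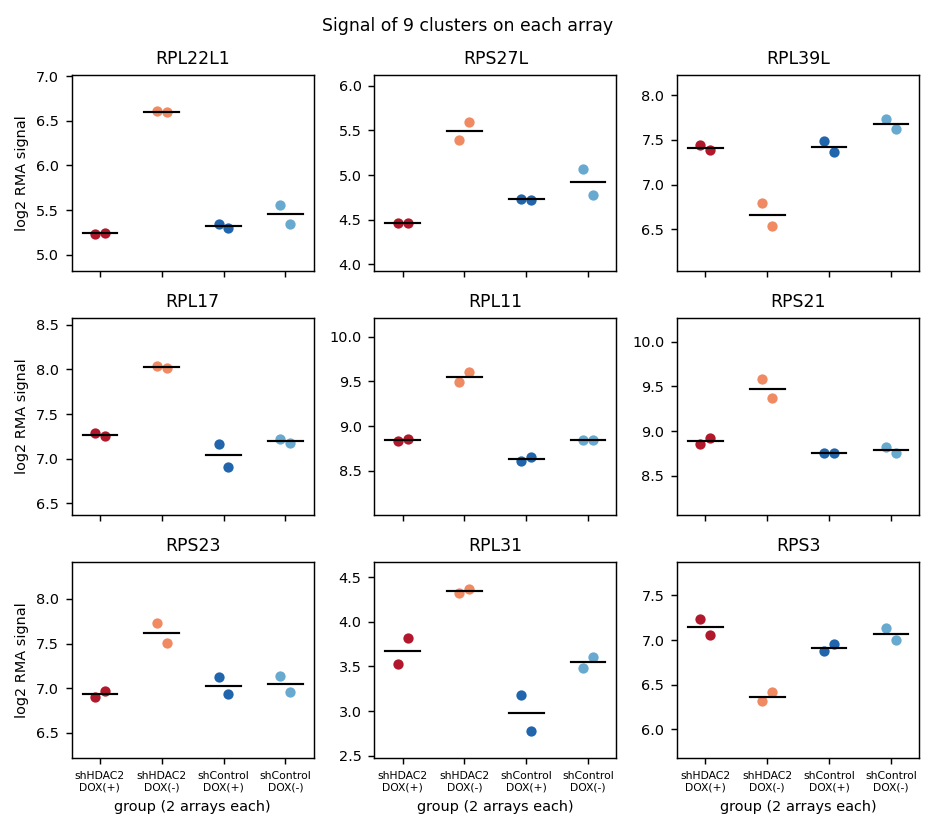
Log2 RMA signal of 9 clusters on each array (points, 2 per group) with the group mean (black line). Each panel spans the same log2 range, and in 7 panels the shHDAC2 DOX(-) arrays lie above the other 6, while in RPL39L and RPS3 they lie below.

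With each array left out in turn, 6 of the 9 lower and 2 of the 4 higher members kept an adjusted p under 0.05 in all 8 fits. RPL12 lost the call without shHDAC2 DOX(+) replicate 2 (0.42, adjusted p = 0.0507), RPL31 without shHDAC2 DOX(-) replicate 2 or shHDAC2 DOX(+) replicate 1 (adjusted p = 0.0501 and 0.08), RPL29 without shHDAC2 DOX(-) replicate 1 or either shHDAC2 DOX(+) array (0.0516 to 0.0959), RPL34 without shHDAC2 DOX(-) replicate 2 or either shHDAC2 DOX(+) array (0.0681 to 0.107), and RPL26L1 without any of the 4 shHDAC2 arrays (0.0538 to 0.0746).

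In shHDAC2 DOX(-) cells set against shControl DOX(-) cells, both without doxycycline, 17 of the 60 clusters were higher and 2 lower. The higher share was 28.3% for members, against 13.7% for all clusters, and the lower share was 3.33% for members, against 16.3% for all. Among clusters in the top 25% of signal, 21.6% of the members were higher and 5.41% lower, against 17.6% and 33.0% of all clusters. Members were above 0 in 47 of 60 clusters (all clusters 52.9%), with a median of 0.21 (all clusters 0.02). Arrays did not overlap for 33 higher and 6 lower members (31.6% and 30.2% of all clusters). With the paralogues left out, large-subunit clusters were higher in 11 of 34 and lower in 0, and small-subunit clusters were higher in 4 of 18 and lower in 1. Of the 8 paralogues, 2 were higher and 1, RPL39L of the large subunit, was lower. No test of the list itself was run. The comparison shares the shHDAC2 DOX(-) arrays with the one before it, so the opposite signs of a gene in both are not independent.

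**Figure D3:**
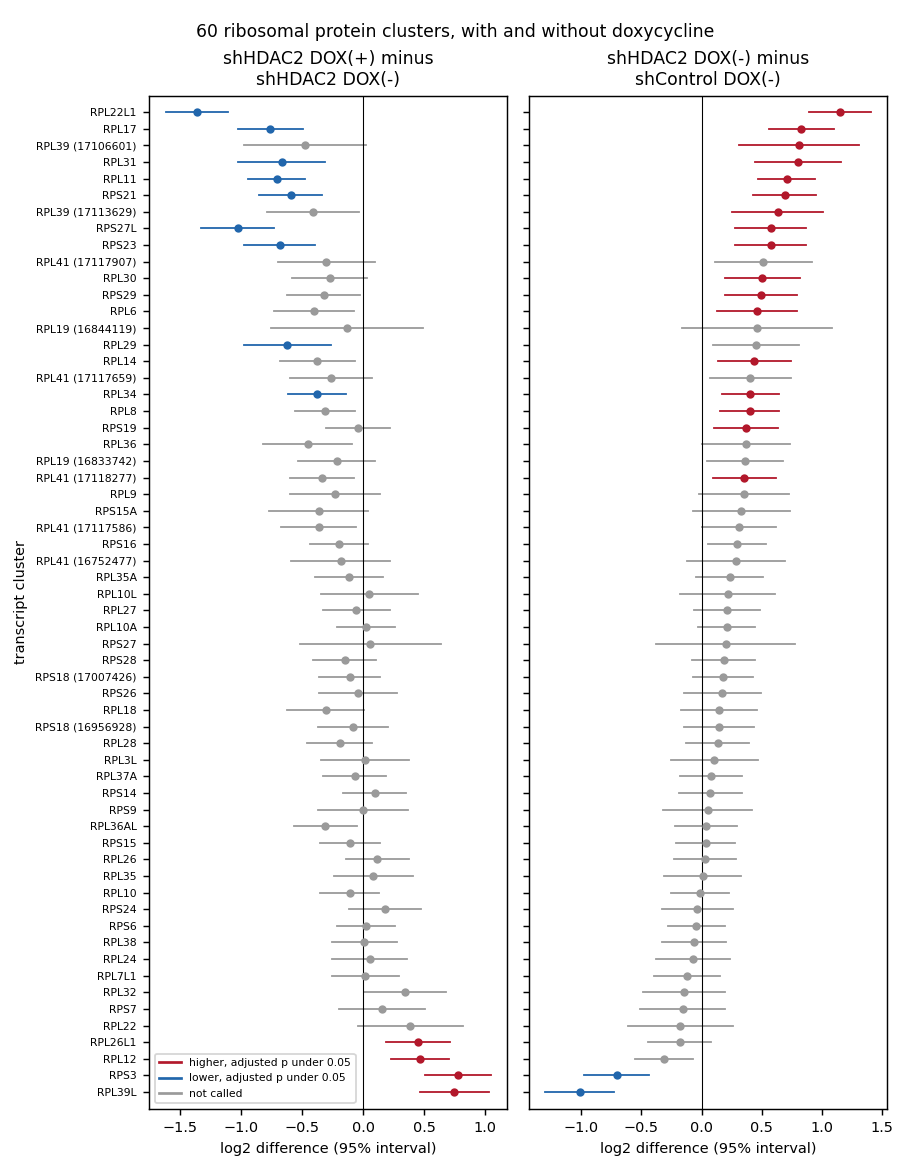
Log2 difference with its 95% interval for each of the 60 clusters, as shHDAC2 DOX(+) minus shHDAC2 DOX(-) (left) and shHDAC2 DOX(-) minus shControl DOX(-) (right), both ordered by the right panel. Red marks clusters called higher (4 left, 17 right), blue those called lower (9 left, 2 right) and grey those not called. The 2 panels share the shHDAC2 DOX(-) arrays, with opposite sign.

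RPL22L1 had the largest rise, with 6.61 and 6.59 in shHDAC2 DOX(-) cells, against 5.56 and 5.35 in shControl DOX(-) cells (log2 difference 1.15, adjusted p = 7.98e-05). RPL17 read 8.04 and 8.02 in shHDAC2 DOX(-) cells, against 7.22 and 7.18 in shControl DOX(-) cells (0.83, adjusted p = 0.000725). RPL11 read 9.50 and 9.60 in shHDAC2 DOX(-) cells, against 8.85 and 8.85 in shControl DOX(-) cells (0.70, adjusted p = 0.000884). For all 3 genes, both shHDAC2 DOX(-) arrays lay above both shControl DOX(-) arrays, with a gap wider than that between replicates. RPS21 rose by 0.69 (adjusted p = 0.00165), RPL31 by 0.80 (adjusted p = 0.00443), RPS23 by 0.57 (adjusted p = 0.00898), RPS27L by 0.57 (adjusted p = 0.00945) and RPL30 by 0.50 (adjusted p = 0.0219). RPL39, a small protein of the exit tunnel, was higher on both of its clusters, by 0.81 and 0.63 (adjusted p = 0.0218 and 0.0187). RPL34, RPS19, RPS29, RPL6, RPL14, RPL8 and 1 cluster of RPL41 were also higher, by 0.35 to 0.49, the last 5 being named after their values were seen.

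RPL39L and RPS3 were the 2 members lower in shHDAC2 DOX(-) cells. RPL39L read 6.80 and 6.53 in shHDAC2 DOX(-) cells, against 7.73 and 7.62 in shControl DOX(-) cells (2.01-fold lower, log2 difference -1.01, adjusted p = 0.000324). RPS3 read 6.31 and 6.42 in shHDAC2 DOX(-) cells, against 7.14 and 7.01 in shControl DOX(-) cells (-0.70, adjusted p = 0.00183). RPL12 had a log2 difference of -0.31 (adjusted p = 0.0512).

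The calls of RPL22L1, RPL17, RPL31, RPL11 and RPS21 (higher) and of RPL39L and RPS3 (lower) held with each of the 8 arrays left out. The other 12 rises lost the call in 2 to 8 of those fits, with adjusted p between 0.0537 and 0.231, and the count of members called fell to 8 without shControl DOX(-) replicate 2, to 10 without shHDAC2 DOX(-) replicate 1 and to 12 without shHDAC2 DOX(-) replicate 2.

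In shControl cells, comparing DOX(+) with DOX(-) covers the drug together with the induced control shRNA, which this design does not separate. None of the 60 members and 0 of 16098 clusters (0.0%) were called by limma or, after adjustment, by the methods' t-test, and at an unadjusted p under 0.05 there were 868 clusters of all (5.39%) and 5 members, all 5 lower. Of the 60 members, 8 lay above 0 (all clusters 49.2%), with a median of -0.11 (all clusters -0.0035), and in 21 of them both shControl DOX(+) arrays lay below both shControl DOX(-) arrays, in 0 above (17.9% of all clusters each way). RPL31 read 3.17 and 2.78 in shControl DOX(+) cells, against 3.48 and 3.60 in shControl DOX(-) cells (log2 difference -0.57, unadjusted p = 0.00585, adjusted p = 0.714). RPL32 and RPL34, also of the large subunit, had log2 differences of -0.42 and -0.32 (adjusted p = 0.821 and 0.811).

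The difference between the responses of both lines to doxycycline was called for 10 members, 4 higher and 6 lower (16.7%), against 19.6% of all clusters (9.57% higher and 10.0% lower). RPL22L1 had the largest, with -1.36 in shHDAC2 cells and -0.13 in shControl cells (difference -1.23, adjusted p = 0.00079). RPL39L had 0.75 in shHDAC2 cells and -0.25 in shControl cells (difference 1.00, adjusted p = 0.00437), and RPS3 had 0.78 in shHDAC2 cells and -0.16 in shControl cells (0.94, adjusted p = 0.00449). RPS27L had -1.03 in shHDAC2 cells and -0.19 in shControl cells (-0.84, adjusted p = 0.0124). These 4 calls held with each array left out. The calls of RPS23, RPL17, RPS21, RPL11, RPL12 and RPL32 were lost in 5 to 8 of the 8 fits with an array left out, with adjusted p between 0.0605 and 0.128. RPL32 had 0.34 in shHDAC2 cells and -0.42 in shControl cells (0.77, adjusted p = 0.0331), and neither part was called on its own.

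In shHDAC2 DOX(+) cells set against shControl DOX(+) cells, both given doxycycline, only RPL31 was called, as higher (1.67% of members, against 3.67% of all clusters, 0.77% higher and 2.89% lower). RPL31 read 3.53 and 3.82 in shHDAC2 DOX(+) cells, against 3.17 and 2.78 in shControl DOX(+) cells (log2 difference 0.70, adjusted p = 0.0484), and the call was lost when any 1 array was left out (0.0651 to 0.251). Members lay above 0 in 51 of 60 clusters (all clusters 48.5%), with a median of 0.18 (all clusters -0.01), and in 32 of them both shHDAC2 DOX(+) arrays lay above both shControl DOX(+) arrays, in 3 below (21.9% and 26.2% of all clusters). RPL32 had 0.62 (adjusted p = 0.0582), RPS14, of the small subunit, 0.43 (adjusted p = 0.0806), and RPS19, the gene most often mutated in Diamond-Blackfan anaemia, 0.41 (adjusted p = 0.0997). Most of these shifts were thus above 0 and none passed the threshold apart from that of RPL31.

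Against both shControl groups, shHDAC2 DOX(+) cells had 0 of 60 members called by limma (5.96% of all clusters, 1.25% higher and 4.7% lower), and 8 higher and 2 lower at an unadjusted p under 0.05 (19.9% of all clusters). In 14 members both shHDAC2 DOX(+) arrays lay above all 4 shControl arrays and in 3 below (12.5% and 17.8% of all clusters). The median was 0.14 and 47 of 60 lay above 0 (all clusters 48.5%). RPS19 had 0.37 (adjusted p = 0.0723), RPL31 0.42 (adjusted p = 0.125), RPL32 0.41 (adjusted p = 0.112) and RPS27L -0.36 (adjusted p = 0.108). The genes with the largest changes in the other comparisons were not called here. RPL22L1 had -0.15 (adjusted p = 0.459), RPL17 0.15 (adjusted p = 0.475), RPL11 0.10 (adjusted p = 0.598), RPS3 0.15 (adjusted p = 0.466) and RPL39L -0.14 (adjusted p = 0.554).

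The calls of the 8 paralogues went in both directions. RPL22L1 and RPS27L were lower and RPL39L and RPL26L1 higher in shHDAC2 DOX(+) than in shHDAC2 DOX(-) cells, while RPL36AL (-0.31, adjusted p = 0.0722), RPL7L1 (0.02), RPL3L (0.02) and RPL10L (0.05) were not called. Their parents on the array were not called in that comparison, RPL22 having 0.39 (95% interval -0.05 to 0.82), RPS27 0.06 (-0.52 to 0.64), RPL26 0.12 (-0.14 to 0.38) and RPL10 -0.11 (-0.35 to 0.13). The RPS27 cluster may not report the locus of that gene, and where the RPL10 cluster lies is not shown, as set out below. RPL39 had -0.48 and -0.41 on its 2 clusters (adjusted p = 0.144 and 0.0989), and in shHDAC2 DOX(-) against shControl DOX(-) cells its rise stood opposite to the fall of RPL39L. Paralogue and parent were not tested against each other, and the parents of RPL3L, RPL7L1 and RPL36AL were not analysed here.

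**Figure D4:**
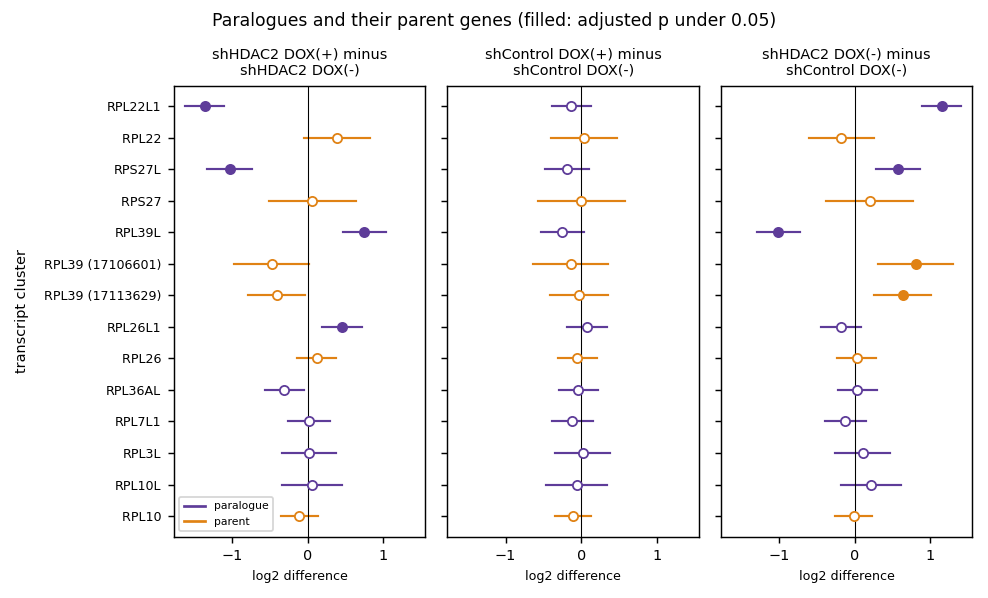
Log2 difference with its 95% interval for the 8 paralogues (purple) and the parent genes measured (orange) in 3 comparisons. The RPS27 cluster may not report the locus of that gene, and where the RPL10 cluster lies is not shown. Filled points passed an adjusted p of 0.05, and the filled points are RPL22L1, RPS27L, RPL39L and RPL26L1 on the left, none in the middle, and RPL22L1, RPS27L, RPL39L and both RPL39 clusters on the right.

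RPS6 and RPL10 were not called in any comparison. RPS6, the target of the S6 kinases, had 0.02 in shHDAC2 DOX(+) against shHDAC2 DOX(-) cells (95% interval -0.21 to 0.26) and -0.04 in shHDAC2 DOX(-) against shControl DOX(-) cells (-0.28 to 0.19). RPL10, which joins the large subunit last, had -0.11 (-0.35 to 0.13) and -0.01 (-0.25 to 0.23). RPS19 had -0.04 (-0.31 to 0.22) and 0.37 (0.10 to 0.63, adjusted p = 0.0414). RPL5, RPSA, RPLP0, RPLP1 and RPLP2 were not analysed here. For the 4 genes with several clusters, RPL41 had log2 differences of 0.28 to 0.51 on its 5 clusters in shHDAC2 DOX(-) against shControl DOX(-) cells (1 of 5 called), RPL19 had 0.36 and 0.46, and RPS18 had 0.15 and 0.18 (not called). Near-identical processed pseudogenes of these genes can bind the same probes. By the chromosome of the 12 nearest-numbered clusters, 10 members (RPL10, RPL12, RPL31, RPS27, RPS28, 1 cluster of RPS18 and 4 of RPL41) sat mostly among genes of other chromosomes. For RPS27, 12 of 12 neighbours were of chromosome 12, while the gene lies on chromosome 1. For RPS28 and the RPS18 cluster, 12 of 12 were of chromosomes 11 and 3, while the genes lie on 19 and 6. These clusters may therefore not report the parent loci. For RPL10, RPL12, RPL31 and the 4 clusters of RPL41, the commonest neighbour chromosome held only 2 to 5 of 12. Their numbers therefore do not show where these clusters lie. Among the other 50, 15 were higher (30.0%, all clusters 13.7%) and 2 lower (4.0%, all clusters 16.3%) in shHDAC2 DOX(-) against shControl DOX(-) cells.

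Ribosomal protein genes of the mitochondrion, whose products build a separate ribosome, were called in both directions. In shHDAC2 DOX(-) against shControl DOX(-) cells, 11 of 82 mitochondrial clusters were higher (13.4%, all clusters 13.7%) and 21 lower (25.6%, all clusters 16.3%), with a median of 0.01, and in shHDAC2 DOX(+) against shHDAC2 DOX(-) cells 18 were higher and 17 lower. Of 31 pseudogene clusters of cytosolic ribosomal proteins, 8 were higher (25.8%) and 3 lower (9.68%) in shHDAC2 DOX(-) against shControl DOX(-) cells. FAU, the only canonical ribosomal protein with another name on the list that was measured, had 0.19 there and was not called.

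**Figure D5:**
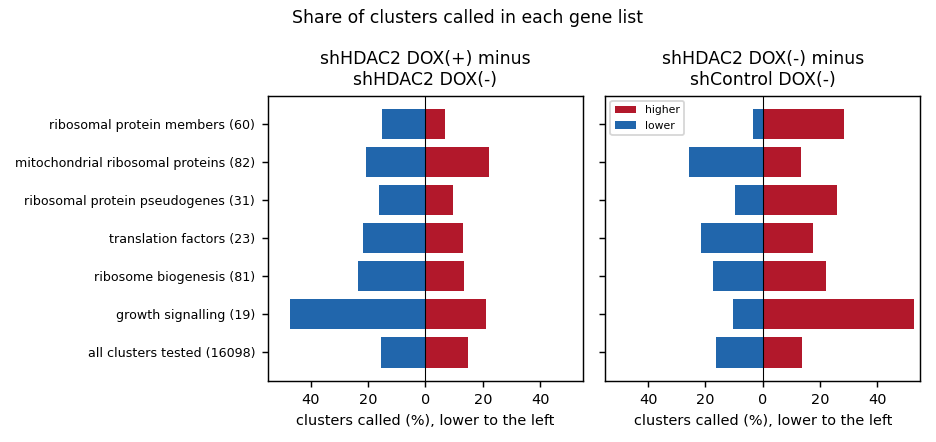
Share of clusters called higher (red, right of 0) and lower (blue, left of 0) at an adjusted p under 0.05 in each gene list, with the number of clusters in parentheses, for shHDAC2 DOX(+) minus shHDAC2 DOX(-) and shHDAC2 DOX(-) minus shControl DOX(-). In the right panel 28.3% of the ribosomal protein clusters were higher and 3.33% lower, against 13.7% and 16.3% of all clusters. In the top 25% of signal, which is not plotted, the higher share was 21.6% for these clusters and 17.6% for all.

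Among translation factors, of which 21 of 57 listed genes were measured (23 clusters), 4 clusters were higher (17.4%) and 5 lower (21.7%) in shHDAC2 DOX(-) against shControl DOX(-) cells, against 13.7% and 16.3% of all clusters. EIF6, which keeps the large subunit from joining too early, rose by 0.64 (adjusted p = 0.00239), and EEF1A2, an elongation factor, read 5.75 and 5.32 in shHDAC2 DOX(-) cells, against 7.40 and 7.07 in shControl DOX(-) cells (-1.70, adjusted p = 0.000147). Of ribosome biogenesis genes (79 of 123 listed, 81 clusters), 18 were higher (22.2%) and 14 lower (17.3%) there. EMG1 rose by 1.05 (adjusted p = 0.000307), WDR3 by 1.02 (adjusted p = 0.000343) and FCF1 by 0.93 (adjusted p = 0.00344). DDX52, an RNA helicase, fell by 1.13 on the log2 scale (adjusted p = 5.98e-05) and BYSL by 0.70 (adjusted p = 0.00695). EMG1, WDR3, FCF1 and BYSL all act in small-subunit processing, as does the yeast counterpart of DDX52. SBDS, which releases EIF6 from the large subunit, fell by 1.06 on the log2 scale (adjusted p = 0.00026). Biogenesis genes were therefore found on both sides.

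Among the growth-signalling genes that act on ribosomes (18 of 26 listed, 19 clusters), 10 clusters were higher (52.6%, all clusters 13.7%) and 2 lower (10.5%, all clusters 16.3%) in shHDAC2 DOX(-) against shControl DOX(-) cells. DDIT4, an inhibitor of mTOR induced by stress, read 9.56 and 9.39 in shHDAC2 DOX(-) cells, against 5.23 and 5.29 in shControl DOX(-) cells (4.21, adjusted p = 6.67e-08). SESN2, another stress-induced inhibitor of mTOR, rose by 1.86 (adjusted p = 5.88e-05), and EIF4EBP1, which mTOR releases from the cap-binding factor, by 0.92 (adjusted p = 0.000805). PDCD4, an inhibitor of translation initiation, fell by 0.98 on the log2 scale (adjusted p = 0.00055), and TSC2, which restrains mTOR, by 0.63 (adjusted p = 0.00996). MTOR, the kinase itself, was higher there by 0.51 (adjusted p = 0.0104). It was lower by a log2 difference of -1.35 in shHDAC2 DOX(+) against shHDAC2 DOX(-) cells (adjusted p = 4.07e-05) and of -0.95 in shHDAC2 DOX(+) against shControl DOX(+) cells (adjusted p = 0.00506). Within the shHDAC2 line, DDIT4 read 5.16 and 5.18 in shHDAC2 DOX(+) cells and 9.56 and 9.39 in shHDAC2 DOX(-) cells (-4.31, adjusted p = 7e-08). The arrays measured transcripts only, so the activity of mTOR and the translation of ribosomal protein mRNA were not measured.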

How the data were processed

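RNA of 8 A172 samples was hybridised to Human Gene 2.0 ST arrays from Affymetrix, 2 per group, whose number limits the precision of every value. For the extraction the methods name both RNeasy and Trizol, and the labels name Trizol. The authors summarised the arrays with RMA in Affymetrix Expression Console, which corrects the background, quantile-normalizes and summarises probes, and deposited log2 signals per transcript cluster. No tool version and no genome build for the array is given in the sources used here. Clusters were named through the platform's gene table, which can be old. The 37519 of 53617 clusters without exactly 1 symbol in that table were not named. They were tested only in an alternative fit on every cluster of the deposited values.

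The deposited log2 values were fitted with limma 3.58.1 in R 4.3.3 as 1 mean per group over all 8 arrays (4 residual and 4.83 prior degrees of freedom), with Benjamini-Hochberg adjustment over 16098 clusters and a two-sided threshold of 0.05 on the adjusted p. Fold changes are taken from log2 differences. Levels are compared between clusters only as ranks of mean signal, for the median, the top 25%, the brighter HDAC2 cluster and the markers. The code was tested on simulated data. As alternatives, the fit was repeated with a replicate block, without each array in turn, on just the groups compared, on clusters at or above the median signal or in its top 25%, on every row of the table, on 1 cluster per gene, after a second quantile normalization or centring, with a variance trend and robust moderation, and with array weights. The two-tailed unpaired test named in the study for comparing 2 groups, here the methods' t-test, was also run and adjusted. A last one, keeping members among numbered neighbours of their own chromosome, was chosen after seeing the data.

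Named members were, in each comparison, up to 10 called rises and 10 called falls (under 3, the 3 largest at an unadjusted p under 0.05), the paralogues with their parents, and a fixed set of well-known genes. From each related list up to 4 called clusters each way were eligible. Members, lists and tests were chosen with earlier results of these data known. Sequences are from the RefSeq table of GRCh38.p14, which matched 48 of 53 member genes.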

Additional observations from a re-analysis of the deposited data

Results flagged for a closer look

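Responses to doxycycline that differed between the lines, by the test of the difference itself, were seen for 10 ribosomal protein clusters (16.7%, all clusters 19.6%). In 6 the log2 difference in shHDAC2 cells was the lower one, with differences of -1.23 for RPL22L1, -0.84 for RPS27L, -0.66 for RPS23, -0.60 for RPL17, -0.56 for RPS21 and -0.49 for RPL11. In 4 it was the higher one, with differences of 0.55 for RPL12, 0.77 for RPL32, 0.94 for RPS3 and 1.00 for RPL39L. The shHDAC2 DOX(-) arrays enter all of these values, and their part in the result was not tested. Several of the calls were lost when an array was left out, as given above.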

How the results depend on the processing

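The number of arrays is the main limit, and with 2 per group a left-out array leaves a lone one that is assumed to vary like the others. No called result changed direction. For doxycycline in shHDAC2 cells, all clusters called (4931) became 2656 in the top 25% of signal, 7828 with every row and 243 with the methods' t-test, and members called (13) became 2 with that test. With single arrays left out the member median was -0.20 to -0.13 and members called were 9 (without shHDAC2 DOX(+) replicate 1) to 13. For doxycycline in shControl cells, 2 clusters were called in the top 25% and 1 with a variance trend. For the difference of responses, members called (10) became 4 with every row and 4 to 6 with an array left out (4 without shControl DOX(-) replicate 2 or shHDAC2 DOX(-) replicate 1), and the member median ran from -0.09 to 0.02. For shHDAC2 against shControl cells on doxycycline, all clusters called (590) became 343 with only the arrays compared, 926 at or above the median, 1043 in the top 25%, 204 with every row, 1159 with a trend and 0 with the methods' t-test, and 97 (without shHDAC2 DOX(+) replicate 1) to 543 with an array left out. Without shHDAC2 DOX(+) replicate 2 it was 310, and without shControl DOX(+) replicate 1 or 2 it was 114 or 122. Members called (1) became 0 with only the arrays compared, 3 at or above the median, 3 in the top 25%, 0 with every row, 0 after a second quantile normalization, 6 with a trend, 0 with the methods' t-test, 0 among members with neighbours of the same chromosome and 0 with any array left out. The member median was 0.12 to 0.20 there. For shHDAC2 against shControl cells without doxycycline, all clusters called (4831) became 2594 in the top 25%, 7636 with every row and 182 with the methods' t-test, and members called (19) became 9 with every row, 0 with the methods' t-test and 8 to 17 with an array left out, with a member median of 0.18 to 0.31. For shHDAC2 DOX(+) against both shControl groups, all clusters called (959) became 561 with every row, 1516 with a trend and 176 (without shHDAC2 DOX(+) replicate 1) to 889 with an array left out, being 446 without shHDAC2 DOX(+) replicate 2 and 518 to 581 without a shControl array. Members called (0) became 1 with the replicate number as a block, 1 at or above the median, 4 in the top 25% and 2 with a trend. The replicate numbers were not taken to pair samples, since residuals of same-numbered arrays correlated at 0.00669 to 0.214 over all clusters, although at 0.331 to 0.51 over the members. The block moved no other count by over 1.5 times. For doxycycline in shHDAC2 cells it gave 17 members called, adding RPL36, both clusters of RPL39 and 1 of RPL41, and for the lines without doxycycline 23, adding RPL12, 1 cluster of RPL19 and 2 of RPL41. On doxycycline RPL32 was called (adjusted p = 0.0458) and RPL31 was not (0.0675), and against both shControl groups the member called was RPS19 (0.0492). The methods' t-test was not run for the difference of responses or against both shControl groups. The fit with only the arrays compared was not run for the difference of responses, which uses all 8. The cause of each change was not tested.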

Other observations

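Replicate number 1 read above number 2 in all 4 groups for 15 of 60 ribosomal protein clusters (8.04% of all clusters), and below it in 6 (11.3%). RPS27, for example, read 11.28 and 10.86 in shHDAC2 DOX(+), 11.27 and 10.75 in shHDAC2 DOX(-), 11.04 and 10.59 in shControl DOX(+) and 11.09 and 10.53 in shControl DOX(-) cells, replicate 1 first, and its cluster lies among numbered neighbours of another chromosome than the gene. Across the 60 clusters, the replicate differences of pairs of groups correlated at 0.331 to 0.51. Clusters are not independent replicates, and the 2 numbers were not shown to mark a shared day or batch.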
